A study of Mus musculus with 12 samples.

Results

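The transcriptomes of mouse bone marrow neutrophils treated with tauro-β-muricholic acid (Tβ-MCA) were compared with those of neutrophils treated with glycocholic acid (GCA). The comparison used 6 of the 12 samples of the series, 3 for each bile acid, chosen by the treatment and replicate number in the sample names, and it covered all 16761 genes that passed a filter on low counts out of 29737 in the deposited table. The other 6 samples were 3 treated with PBS as the control and 3 treated with taurocholic acid (TCA). All cells were wild type neutrophils taken from bone marrow, isolated as Ly6G+ cells on magnetic beads, kept in RPMI 1640 medium with 10% fetal bovine serum and exposed to the bile acid or PBS for 24 h.

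According to the sample labels, Tβ-MCA was given at 10 μM and GCA and TCA at 200 μM. The study's methods section instead gives the same dose for every bile acid. With the labels' doses, the effect of the compound and the effect of the dose cannot be told apart in any difference described here. The labels name replicates 3, 4 and 5 for each bile acid and replicates 3, 5 and 6 for PBS. No source used here says whether these are separate mice, so the p-values measure the spread between these samples, which may be technical.

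Primary bile acids are made from cholesterol in the liver, joined to taurine or glycine, and secreted into bile, and they accumulate in liver and blood when bile flow is blocked. Tβ-MCA and GCA differ in both parts of the molecule. Tβ-MCA is the taurine conjugate of β-muricholic acid, a bile acid typical of rodents, and GCA is the glycine conjugate of cholic acid. TCA shares the cholic acid nucleus with GCA and the taurine with Tβ-MCA. Bile acids act on cells through the nuclear receptor FXR (Nr1h4), through membrane receptors such as TGR5 (Gpbar1) and S1PR2, and at high concentrations as detergents. Neutrophils are short-lived phagocytes that make their granule proteins in sequence as they mature in the marrow, first those of azurophil granules, then those of specific and gelatinase granules.

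Between 32757389 and 38943864 counts were assigned to genes in each of the 6 samples, so that the limit set by 3 counts lay between 0.077 and 0.0916 CPM, the usual read count scaled to library size. CPM values below are scaled by edgeR's TMM factors, which were 1.01 to 1.03 with Tβ-MCA and 0.984 to 1.02 with GCA. Values of single samples are given throughout in the order of replicates 3, 4 and 5. Log2 fold changes are Tβ-MCA minus GCA, with standard errors, and an adjusted p is a Benjamini-Hochberg adjusted p of edgeR's quasi-likelihood test over all genes tested. A gene is said to be called where this adjusted p is under 0.05.

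The neutrophil label held in all 6 samples. The 12 neutrophil markers summed to 43530, 39880 and 45290 CPM with Tβ-MCA and to 56020, 45100 and 48200 CPM with GCA, and none was at 0. The sums of the 12 monocyte and macrophage markers were far smaller, 236 to 447 CPM with Tβ-MCA and 424 to 537 CPM with GCA. The other lists of marker genes, for dendritic cells, eosinophils, basophils, B cells, T and NK cells, erythroid cells, megakaryocytes and stroma, summed to at most 282 CPM in any of the 6 samples.

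Samples of the same group did not lie together. To place each sample, 662 genes were chosen that separated Tβ-MCA samples 3 and 4 from PBS. Tβ-MCA sample 5 and the GCA samples were not used in the choice. On each gene the PBS mean of log2 CPM was set to 0 and the mean of Tβ-MCA samples 3 and 4 to 1. The position of a sample was the mean over genes, weighted by the square of the difference between these means. The averages of PBS and of Tβ-MCA samples 3 and 4 are thus fixed. The choice of genes also tends to place a Tβ-MCA sample left out of it below 1. On this scale Tβ-MCA samples 3, 4 and 5 had positions of 1.1, 0.95 and 0.28. GCA samples 3, 4 and 5 had positions of 0.099, 0.35 and 0.057, and the TCA samples 0.098, 0.055 and 0.032. GCA sample 4 thus lay farther from PBS than Tβ-MCA sample 5. It was on the Tβ-MCA side of PBS for 634 of the 662 genes (95.8%), against 458 (69.2%) for GCA sample 3 and 370 (55.9%) for GCA sample 5. Since Tβ-MCA sample 5 and GCA sample 4 stood apart from their groups on this scale, the results are given with all samples and without them.

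**Figure D1:**
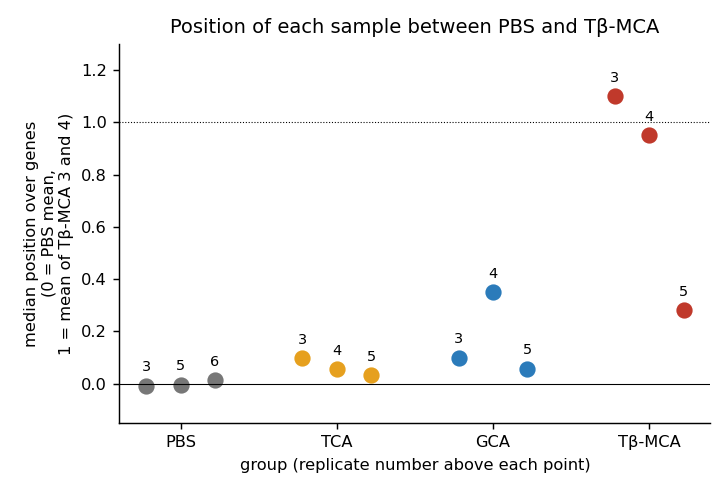
Position of each of the 12 samples over the 662 genes (y axis, no unit), with PBS at 0 and the mean of Tβ-MCA samples 3 and 4 at 1, by group (x axis) and replicate number. The axis is labelled median, but the values are means over genes, weighted by the squared difference between PBS and Tβ-MCA samples 3 and 4. Tβ-MCA sample 5 at 0.28 and GCA sample 4 at 0.35 lie between the other Tβ-MCA samples and all other samples.

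With all samples and no use of the replicate number, no gene was called (0 of 16761, 0%) by edgeR's quasi-likelihood test, and the lowest adjusted p was 0.207. At an unadjusted p under 0.05, 2598 genes (15.5%) differed, of which 1328 (7.92%) were higher and 1270 (7.58%) lower with Tβ-MCA. DESeq2 called 298 genes on the same samples, 130 higher and 168 lower. The study names cutoffs of 0.05 for p and 2 for the fold change, and beside them does not say whether p was adjusted. Taken with an unadjusted p, and called the study's thresholds here, they were met by 265 genes (1.58%), 96 higher (0.573%) and 169 lower (1.01%). These genes were weakly expressed, with a median of 0.53 CPM against 8.88 CPM over all genes tested. The 3 values of one group lay wholly above or below those of the other for 2262 genes (13.5%), 1205 higher (7.19%) and 1057 lower (6.31%). The split of genes at an unadjusted p under 0.05 was 1250 higher and 1348 lower with RLE factors and 1673 higher and 957 lower with total library size. With limma on log2 RPKM, which also changed the test and the filter, it was 1452 higher and 863 lower.

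When the replicate number was added to the model as a block, 332 genes (1.98%) were called, 140 higher (0.835%) and 192 lower (1.15%) with Tβ-MCA. The differences were modest in size: the median was 0.425 on the log2 scale and 27 genes reached a fold change of 2. These genes had a median of 25.4 CPM. All 332 differed in the same direction in each of the 3 pairs of samples with the same number, as did 7464 of all genes tested. In 136 of the 332 genes (59 higher and 77 lower), however, GCA sample 4 lay beyond Tβ-MCA sample 5.

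Without Tβ-MCA sample 5, and with no block, 1639 of 17131 genes (9.57%) were called, 683 higher (3.99%) and 956 lower (5.58%), and among them were 286 of the 332 called with the block. Without both Tβ-MCA sample 5 and GCA sample 4, a choice made after their positions were seen, 2063 of 17054 genes (12.1%) were called, 920 higher (5.39%) and 1143 lower (6.7%). Samples left out for lying close to the other group leave groups that lie farther apart, so part of this increase is built into the choice. The same holds for single genes given below without these samples, so their p-values there are no independent support. Leaving out GCA sample 4 alone called 0 genes, and leaving out any other single sample of these groups also called 0.

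**Figure D2:**
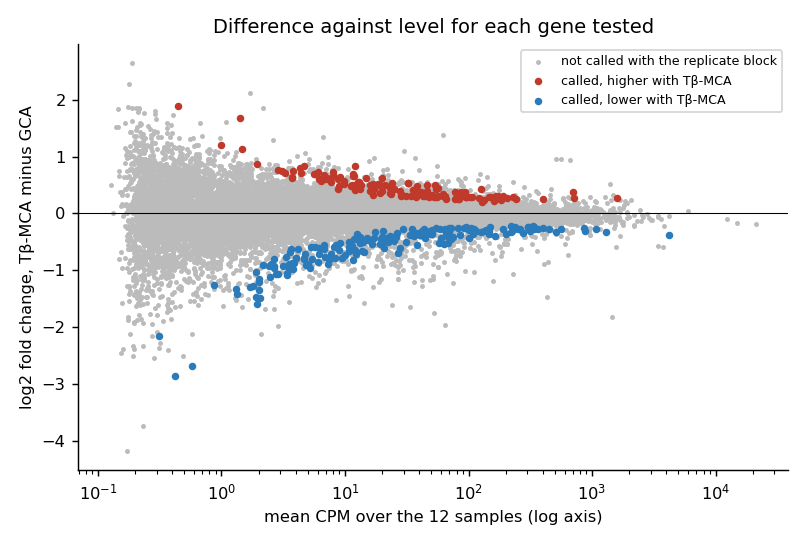
Log2 fold change of Tβ-MCA minus GCA (y axis) against mean CPM over the 12 samples (x axis, log scale) for the 16761 genes tested, each a point. The 332 genes called with the replicate block are coloured, and the 140 higher and 192 lower genes lie mostly within 1 log2 unit of 0.

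The design also allowed GCA to be compared with PBS and TCA. GCA against PBS gave no called gene with edgeR, with 591 genes (3.53%) at an unadjusted p under 0.05, and Tβ-MCA against PBS gave 1278 called genes (7.62%), 745 higher and 533 lower. For the latter the count was 1498 with the block and 3053 without both samples that stood apart, 1442 higher and 1611 lower. GCA and TCA, which have the same cholic acid nucleus, the same labelled dose and differ in glycine against taurine, also gave no called gene with edgeR. For that pair 412 genes (2.46%) had an unadjusted p under 0.05, and DESeq2 and edgeR with the block called 0 as well, with 371 and 718 genes at an unadjusted p under 0.05. The median half-width of the 95% interval of a difference was 0.311 log2 units and it was under 1 log2 unit for 89% of genes, so smaller differences between GCA and TCA were not detectable for many genes. Tβ-MCA and TCA share the taurine and differ in the nucleus and the labelled dose, and 588 genes (3.51%) were called between them, 372 higher and 216 lower with Tβ-MCA. The count was 2322 with the block and 2619 without both samples that stood apart, 1242 higher and 1377 lower. Without GCA sample 4, GCA against PBS and GCA against TCA still gave 0 called genes, with 374 and 276 at an unadjusted p under 0.05. These comparisons share their samples with each other and are not independent.

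The leading genes by p among those with a fold change of at least 2 and no overlap between the groups were mostly low in expression. There were 168 such genes, 64 of them with symbols of common forms for predicted or unnamed genes, which were only counted. Names taken from genomic clones were not among these forms. Of the 12 leading lower genes with names, Adora3, the adenosine A3 receptor, was 0.718, 0.918 and 1.04 CPM with Tβ-MCA and 2.42, 2.32 and 1.79 CPM with GCA. As the choice of these genes required, all 3 Tβ-MCA samples lay below all 3 GCA samples. The log2 fold change was -1.28 ± 0.26 (adjusted p = 0.207), and with the block Adora3 was called (-1.25, adjusted p = 0.033). Adora3 (chromosome 3, 105870858 to 105908926, GRCm38) overlaps Tmigd3 on the same strand, so its reads and those of Tmigd3 may be split between them.

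Brsk1, a serine/threonine kinase best known from neurons, was 1.55, 1.35 and 2.17 CPM with Tβ-MCA and 4.22, 2.61 and 3.89 CPM with GCA (log2 fold change -1.08 ± 0.23, adjusted p = 0.207). Notch4, a Notch receptor of endothelium, was 1.29, 1.49 and 2.25 CPM against 3.01, 3.24 and 4.33 CPM (-1.07 ± 0.23, adjusted p = 0.207). Both were called with the block, at an adjusted p of 0.033 each. Nectin1, a cell adhesion molecule, was near the detection limit with Tβ-MCA at 0.0598, 0.054 and 0.161 CPM and reached 0.282, 0.573 and 0.986 CPM with GCA. It was called with the block (log2 fold change -2.67, adjusted p = 0.033), on few counts a sample. In all, 10 of the 12 leading lower genes were called with the block, among them also Piwil2, Hif3a, Mrps28, Slco2b1 and Farp1. Vcam1, the adhesion molecule that binds VLA-4, was the most abundant of the 12, at 4.19, 4.92 and 9.23 CPM with Tβ-MCA and 13.5, 9.68 and 14.1 CPM with GCA. The groups did not overlap, but Tβ-MCA sample 5 was separated from GCA sample 4 by less than 1 CPM, and its adjusted p in the blocked fit was 0.105. Without Tβ-MCA sample 5 Vcam1 was called, with a log2 fold change of -1.45 (adjusted p = 0.000183).

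Of the 12 leading higher genes, none was called with the block. Fn3k, which encodes the kinase that removes sugar adducts from proteins, was the highest in expression, at 6.31, 5.97 and 2.41 CPM with Tβ-MCA and 0.394, 2.41 and 0.571 CPM with GCA. GCA sample 4 reached Tβ-MCA sample 5 almost exactly, while PBS and TCA had means of 0.42 and 0.386 CPM. The log2 fold change was 2.13 ± 0.64 (adjusted p = 0.214) and 2.33 with the block (adjusted p = 0.058). Without both samples that stood apart it was 3.65, a rise partly built into that choice of samples. The remaining 11 genes were between 0.179 and 3.4 CPM with Tβ-MCA, among them Gstk1, a glutathione transferase of mitochondria and peroxisomes, Spire2, an actin nucleator, and Ankrd42. RP23-303A11.3, which had the highest of these values, and RP23-37D14.4 are named only after genomic clones.

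Among genes of at least 10 CPM, those called with the block, with the lowest p and no overlap between groups, were also described. This rule was chosen after the values were seen. P2ry1, the purinergic receptor for ADP, was 20.3, 18.1 and 13.3 CPM with Tβ-MCA and 11.8, 12.3 and 8.79 CPM with GCA. Crot, which moves fatty acids out of peroxisomes, was 44.5, 46.9 and 34.4 CPM against 27.9, 32.5 and 25.9 CPM. As the rule required, the lowest Tβ-MCA value in both genes, that of sample 5, was above the highest GCA value. Their log2 fold changes with the block were 0.65 and 0.54, each with an adjusted p of 0.033. Manba, a lysosomal mannosidase, Smad5, a signal transducer of bone morphogenetic proteins, Rad50 of the DNA repair complex MRN, and Pola2, a subunit of DNA polymerase α, were also higher with Tβ-MCA and called with the block, by 0.29 to 0.51 on the log2 scale. On the lower side, Lst1, a leukocyte gene of the MHC class III region, was 39.8, 47.1 and 60.9 CPM against 71, 62.3 and 78.9 CPM. Itgb7, the integrin β7 chain, was 18.8, 17 and 25.1 CPM against 34.6, 26.8 and 31.9 CPM. Ass1, which makes argininosuccinate on the way to arginine, was 5.33, 7.08 and 10.1 CPM against 10.7, 10.5 and 14.3 CPM. These 3 genes were called with the block at an adjusted p of 0.033, with log2 fold changes of -0.53, -0.61 and -0.67.

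The same genes were described by groups of related function, in 43 lists of 687 genes, of which 633 were tested. The median log2 fold change was below 0 in 30 lists and below -0.2 in 10, and 1 list, that of the circadian clock, had a median above 0.2. Over all 16761 genes tested the median was 0.00, with 8519 genes above 0 and 8242 below. Lists were not tested as sets, and members of a list named below were chosen after their values were seen, except those that met the study's thresholds. As no member was called with all samples and no block, counts are given at an unadjusted p under 0.05 (7.92% of all genes higher and 7.58% lower), with the block and without Tβ-MCA sample 5.

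**Figure D3:**
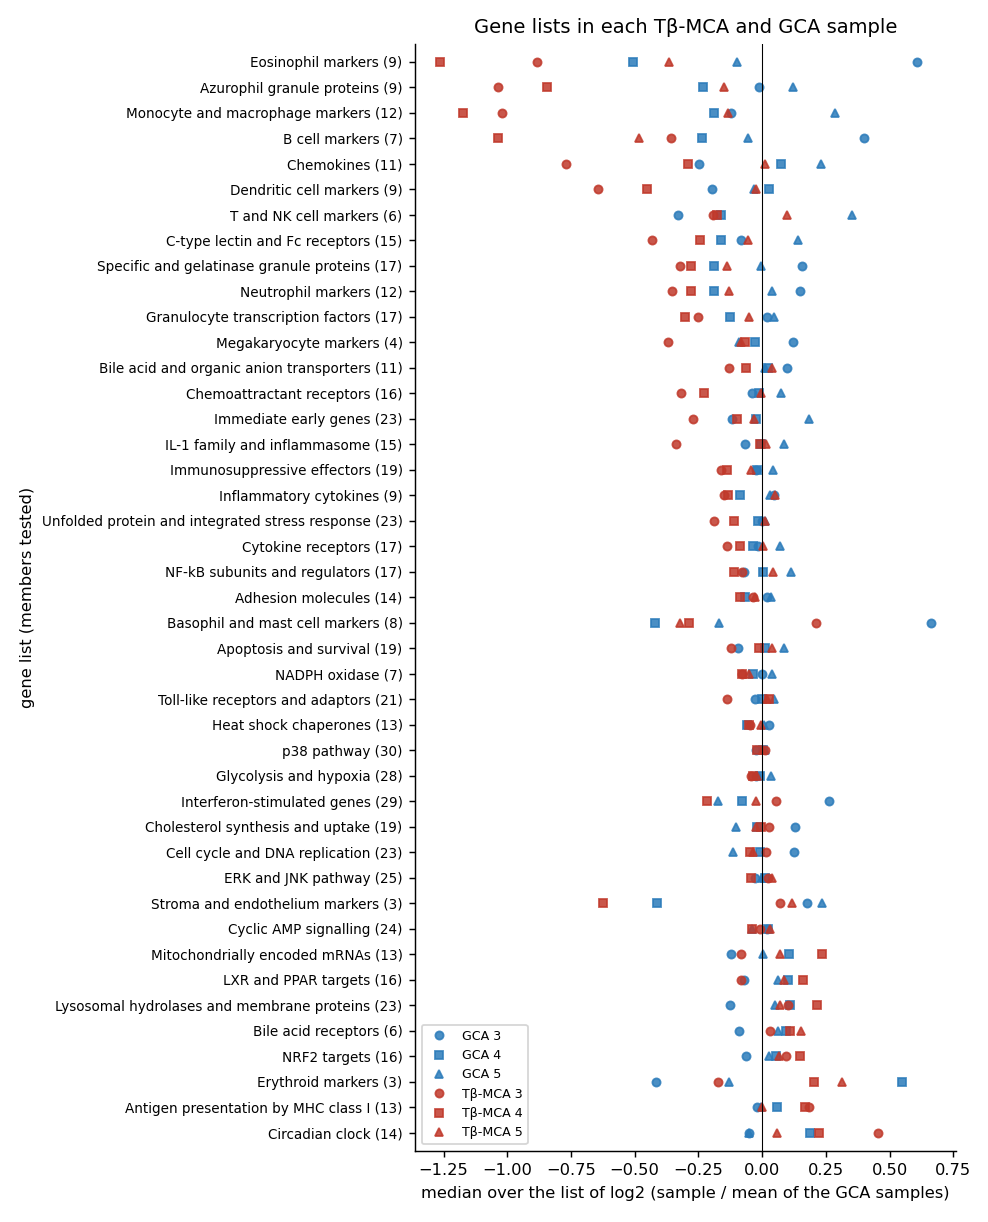
Median over each of the 43 gene lists (y axis, with the number of members tested) of the log2 ratio of a sample to the mean of the 3 GCA samples (x axis), for the 3 Tβ-MCA and the 3 GCA samples. For azurophil granule proteins and monocyte markers, Tβ-MCA samples 3 and 4 lie far below 0 and Tβ-MCA sample 5 lies among the GCA samples.

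Granule protein genes were compared in 2 lists. Of 9 azurophil granule genes, 7 had a log2 fold change below 0 and 2 above, 5 were lower and 0 higher at an unadjusted p under 0.05, with a median log2 fold change of -0.75, and none was called with the block. Without Tβ-MCA sample 5, 6 of the 9 were called, all lower. Mpo, the myeloperoxidase that makes hypochlorous acid, was 32.3, 44.5 and 154 CPM with Tβ-MCA and 190, 131 and 205 CPM with GCA, and the means with PBS and TCA were 203 and 175 CPM. Tβ-MCA samples 3 and 4 were below every GCA sample, and Tβ-MCA sample 5 was above GCA sample 4. The log2 fold change was -1.19 ± 0.51 (adjusted p = 0.321), -1.34 with the block (adjusted p = 0.228) and -2.19 without Tβ-MCA sample 5 (adjusted p = 0.000196). Elane, neutrophil elastase, was 2.72, 5.94 and 19.2 CPM against 19, 17.4 and 26 CPM. Ctsc, the protease that activates the granule serine proteases, was 11.6, 9.99 and 19.5 CPM against 25.6, 18.6 and 24.8 CPM. Prtn3, proteinase 3, was 4.55, 7.34 and 11.4 CPM against 12.4, 11.5 and 15.7 CPM, with no overlap. Ctsc and Prtn3 had adjusted p-values of 0.0568 and 0.0815 with the block.

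**Figure D4:**
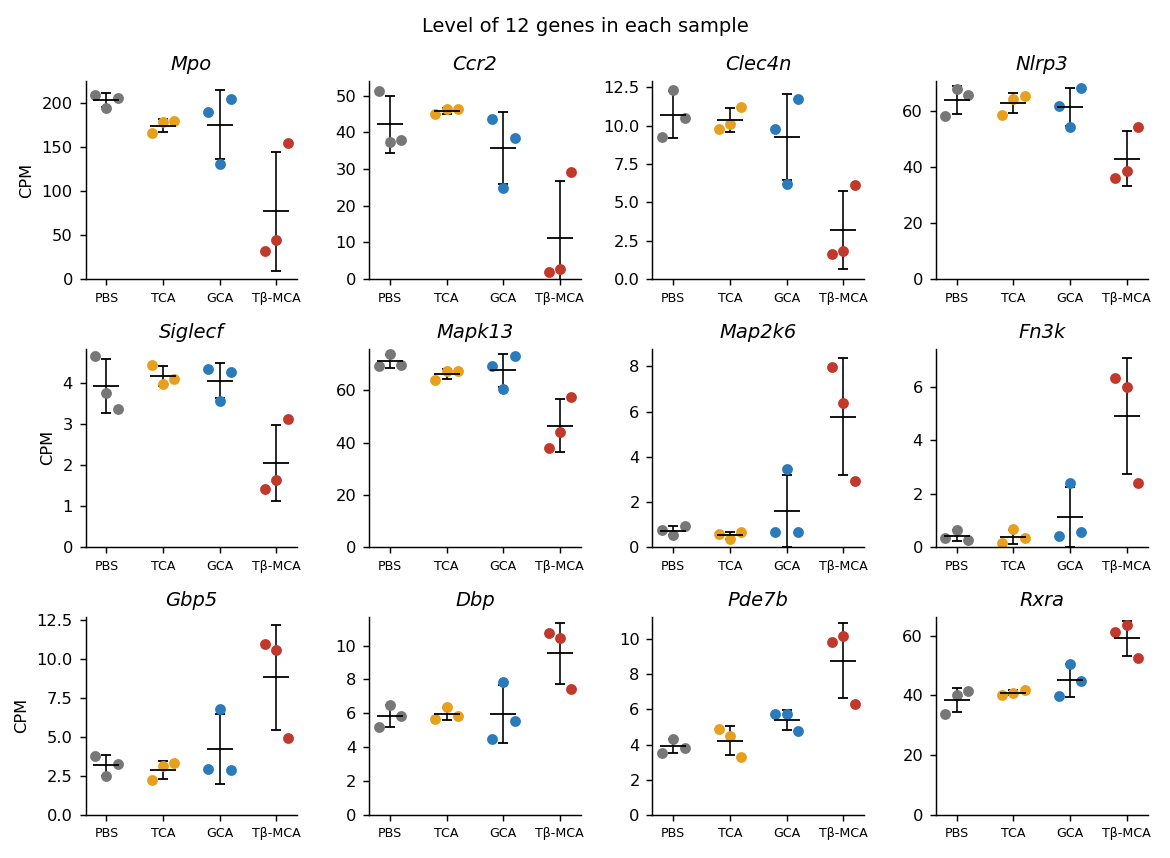
CPM of 12 genes (y axes, each from 0) in every sample of the 4 groups (x axes), with the mean and SD of 3 samples as a black line and bar, cut at 0. In the 6 genes that were lower, from Mpo to Mapk13, Tβ-MCA sample 5, the rightmost red point, is the closest Tβ-MCA sample to GCA, and in Map2k6, Fn3k, Gbp5 and Dbp GCA sample 4, the middle blue point, is the highest of GCA.

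Of 17 genes of specific and gelatinase granules, 11 were lower and 0 higher at an unadjusted p under 0.05, with a median of -0.22, and 7 were called without Tβ-MCA sample 5, all lower. Hp, haptoglobin, and Chil3, a chitinase-like protein, were the 2 called with the block, lower with Tβ-MCA, with log2 fold changes of -0.33 (adjusted p = 0.033) and -0.37 (adjusted p = 0.0451). Camp, the antimicrobial peptide cathelicidin, was 217, 198 and 350 CPM with Tβ-MCA and 543, 339 and 494 CPM with GCA. Mmp9, the gelatinase, was 361, 381 and 578 CPM against 686, 538 and 698 CPM. In both, Tβ-MCA sample 5 was above GCA sample 4. Neither passed with the block (adjusted p = 0.139 and 0.162), and both were called without Tβ-MCA sample 5, at -1.14 (adjusted p = 0.0244) and -0.79 (adjusted p = 0.000979). Ly6g, one of the neutrophil markers, was 7.54, 8.32 and 12.9 CPM against 17.4, 11.7 and 15.3 CPM.

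Of 17 transcription factors of granulocyte development, 8 were lower and 1 higher at an unadjusted p under 0.05. Irf2, an interferon regulatory factor, was 226, 249 and 312 CPM with Tβ-MCA and 309, 294 and 370 CPM with GCA, and it was called with the block (log2 fold change -0.31, adjusted p = 0.0403). Cebpa, which starts the granulocyte programme, was 34.9, 34.5 and 61.9 CPM against 61.9, 55.5 and 72.8 CPM. Irf8, which favours monocytes over granulocytes, was 39, 37.8 and 70.9 CPM against 81.2, 60.3 and 77.1 CPM. Tβ-MCA sample 5 fell among the GCA samples in these genes, and both were called without it, at -0.87 (adjusted p = 0.000154) and -0.93 (adjusted p = 0.00018). Spi1, which encodes PU.1, was 410, 414 and 466 CPM against 501, 447 and 520 CPM, a log2 fold change of -0.19 ± 0.07 (adjusted p = 0.254).

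Of the 12 neutrophil markers, 11 had a log2 fold change below 0 and 1 above, with a median of -0.21. At an unadjusted p under 0.05, 7 were lower and 0 higher. With the block 0 were called, and without Tβ-MCA sample 5, 4 were called, all lower. Lists of markers of other myeloid cells differed from each other. Of 12 monocyte and macrophage markers all 12 had a log2 fold change below 0, 5 at an unadjusted p under 0.05, with a median of -0.75. None was called with the block, and 8 were called without Tβ-MCA sample 5. Ccr2, the receptor that brings monocytes out of the marrow, was 2.03, 2.7 and 29.2 CPM with Tβ-MCA and 43.7, 24.9 and 38.5 CPM with GCA. Its value in Tβ-MCA sample 5 was more than 10 times that in samples 3 and 4 and within the range of GCA. With all samples the log2 fold change was -1.65 ± 0.83 (adjusted p = 0.387), and without Tβ-MCA sample 5 it was -3.91 (adjusted p = 0.000102). Fcgr1, the high-affinity IgG receptor, was 0.15, 0.054 and 1.98 CPM against 2.96, 2.32 and 3.55 CPM. In bulk RNA fewer cells of a type and less RNA per cell cannot be told apart, and this holds for every marker list here.

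The summed monocyte markers were 236, 275 and 447 CPM with Tβ-MCA and 424, 429 and 537 CPM with GCA (exact two-sided permutation test of 3 against 3 samples, p = 0.3, where 0.1 is the smallest p it can give). The 9 eosinophil markers summed to 92.4, 64.6 and 147 CPM against 282, 133 and 172 CPM (same exact test, p = 0.2), with a median log2 fold change of -0.98. Siglecf, an inhibitory lectin of eosinophils, was 1.41, 1.62 and 3.1 CPM against 4.34, 3.55 and 4.25 CPM, without overlap, and was called with the block (-0.99, adjusted p = 0.04). Prg3, an eosinophil granule protein, was called with the block too, at -0.67. Of 9 dendritic cell markers, 7 were below 0 and 2 above, with 2 lower at an unadjusted p under 0.05 and none called with the block. The 8 basophil and mast cell markers had a median of -0.04, with 5 below 0 and 3 above, and summed to 79, 49.9 and 56.5 CPM against 92.9, 50 and 57.5 CPM (same exact test, p = 0.6). Among them 1 was called with the block, the protease gene Prss34, at -0.81. The 7 B cell markers were low in sum, 8.48 to 10.9 CPM with Tβ-MCA and 10.1 to 16.9 CPM with GCA, and Ms4a1, which encodes CD20, was called with the block (-2.19, adjusted p = 0.0479) at 0.0535 to 0.239 CPM against 0.363 to 0.789 CPM. The part of such cells in the other differences was not tested.

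Receptors for pathogens and immune complexes differed in both directions with all samples, and only lower members were called without Tβ-MCA sample 5. Of 15 C-type lectin and Fc receptor genes, 7 were lower and 2 higher at an unadjusted p under 0.05, and the 2 called with the block were both higher. These were Fcgr2b, the inhibitory IgG receptor, at 202, 230 and 184 CPM with Tβ-MCA and 144, 189 and 168 CPM with GCA (0.31 with the block, adjusted p = 0.0494), and Clec4e, the mycobacterial glycolipid receptor Mincle, at 163, 200 and 170 CPM against 142, 166 and 149 CPM (0.22 with the block, adjusted p = 0.0494). Neither was called without Tβ-MCA sample 5, where 9 of the 15 were called, all lower. Clec4n, which encodes Dectin-2, was 1.61, 1.86 and 6.13 CPM against 9.77, 6.21 and 11.8 CPM, without overlap. It was lower by a log2 fold change of -1.52 ± 0.44 (adjusted p = 0.213), with an adjusted p of 0.0815 with the block and 0.000145 without Tβ-MCA sample 5. Clec7a, which encodes the β-glucan receptor Dectin-1, was 6.37, 9.05 and 17.7 CPM against 19.4, 17.6 and 26.3 CPM.

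Among 21 Toll-like receptor and adaptor genes, 1 was called higher and 1 lower with the block. Ly96, which encodes the lipopolysaccharide-binding partner of TLR4, was 5.03, 8.53 and 6.72 CPM with Tβ-MCA and 2.93, 3.92 and 4.46 CPM with GCA (0.84 with the block, adjusted p = 0.033). Tlr5, the flagellin receptor, was 1.41, 1.35 and 3.1 CPM against 3.46, 3.52 and 5.13 CPM (-1.07 with the block, adjusted p = 0.033). Neither gene overlapped between the groups. Without Tβ-MCA sample 5, 4 of the 21 were called, all lower, with Tlr5 among them and Ly96 not.

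In the list of the IL-1 family and the inflammasome, 1 of 15 genes was called higher and 3 lower with the block. Nlrp3, the sensor of the NLRP3 inflammasome, was 36.2, 38.7 and 54.3 CPM with Tβ-MCA and 61.8, 54.6 and 68.4 CPM with GCA, and 64.1 and 63 CPM on average with PBS and TCA. The 3 Tβ-MCA samples were the lowest, though sample 5 came within 1 CPM of GCA sample 4. The log2 fold change was -0.51 ± 0.13 (adjusted p = 0.207), -0.53 with the block (adjusted p = 0.033) and -0.72 without Tβ-MCA sample 5 (adjusted p = 0.000457). Il1r2, the decoy receptor for IL-1, was 95.3, 122 and 156 CPM against 161, 147 and 183 CPM, and Il18 was 0.299, 0.567 and 0.535 CPM against 0.676, 1.09 and 1.61 CPM. Both were lower and called with the block, at adjusted p-values of 0.0451 and 0.0473. Casp4, the caspase that senses cytosolic lipopolysaccharide, was called higher at 20.1, 24.2 and 21.1 CPM against 16.4, 18.9 and 16 CPM (0.35, adjusted p = 0.0493). Pycard, the adaptor ASC, was 130, 130 and 90.2 CPM against 74, 92.7 and 83.4 CPM, with an adjusted p of 0.135 with the block and 0.000457 without Tβ-MCA sample 5.

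Chemoattractant signalling genes passed the unadjusted threshold in numbers near those of all genes. Of 11 chemokines, 1 was lower and 0 higher at an unadjusted p under 0.05 and 2 were called without Tβ-MCA sample 5, both lower. The 1 was Ccl9, at 7.36, 8.1 and 33.2 CPM with Tβ-MCA and 38.9, 28.4 and 45.5 CPM with GCA. Of 16 chemoattractant receptors, 2 were lower, Ccr1 and Fpr2, and 5 were called without Tβ-MCA sample 5, all lower. Ccr1, a receptor for CC chemokines, was 34.4, 46.2 and 64.4 CPM against 80.9, 62.1 and 76 CPM. Fpr2, which binds formylated bacterial peptides, was 34.4, 43.7 and 56.1 CPM against 61.5, 50.9 and 64.2 CPM. No member of either list was called with the block.

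Calls among interferon-stimulated genes differed between the fit with the block and that without Tβ-MCA sample 5, which had no block. Of 29 tested, 6 were higher and 3 lower at an unadjusted p under 0.05, with the block 2 were called higher and 3 lower, and 7 were called higher and 0 lower without Tβ-MCA sample 5. Guanylate-binding proteins, GTPases that coat intracellular microbes, made up the genes called higher: Gbp3 was 10.6, 10.6 and 9.64 CPM with Tβ-MCA and 7.41, 8.31 and 7.16 CPM with GCA (0.43 with the block, adjusted p = 0.048), and Gbp7 was 37.1, 28.6 and 24 CPM against 22.4, 24.5 and 18.9 CPM (0.43, adjusted p = 0.0467). Gbp5 of the same family met the study's thresholds at 10.9, 10.6 and 4.92 CPM against 2.93, 6.79 and 2.88 CPM, with GCA sample 4 above Tβ-MCA sample 5 and an adjusted p of 0.12 with the block. The genes called lower were Irgm1, an immunity-related GTPase, at 25.7, 31 and 34.5 CPM against 39.2, 35.4 and 41.9 CPM, and Oas1a and Oasl1 of the oligoadenylate synthetase family. Oas1a was 7.9, 5.05 and 6.83 CPM against 12.7, 7.65 and 8.17 CPM, and its log2 fold change with the block was -0.52 (adjusted p = 0.0384). Without Tβ-MCA sample 5 Irgm1, Oas1a and Oasl1 kept log2 fold changes below 0 and were not called (adjusted p = 0.0646, 0.221 and 0.199). In the list of 13 genes of MHC class I presentation, 4 were higher and 1 lower at an unadjusted p under 0.05. Psmb9, a subunit of the immunoproteasome, was 39.4, 37.6 and 32 CPM against 27.5, 30.7 and 28 CPM, without overlap, and had an adjusted p of 0.0545 with the block.

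Promoters of genes called with the block were searched for short motifs on both strands, in the window of 250 bases before and 50 bases after each start site in RefSeq (GRCm38.p6), which held 10369 of the genes tested, 101 of those called higher and 136 of those called lower. The core of the interferon-stimulated response element, GAAA and again GAAA with any 2 bases between them, was in 3.96% of all these promoters, in 6.93% of those of genes called higher and in 8.09% of those of genes called lower. The core of the PU.1 site, GAGGAAGT, was in 4.09% of all promoters, in 1.98% of those called higher (Hrh2 and Trim5) and in 8.09% of those called lower, 11 genes that included Adora3, Slco2b1, Itgb7, Havcr2 and Bak1. These motifs were picked from a longer set after the shares were seen. The E-box CACGTG was in 11.3% of all promoters, 17.8% of those called higher and 12.5% of those called lower. In the same order, shares were 6.61%, 7.92% and 10.3% for AP-1 and 17%, 13.9% and 21.3% for the antioxidant response element core. They were 6.15%, 4.95% and 4.41% for NF-κB, 3.5%, 1.98% and 2.94% for the cyclic AMP response element and 34.5%, 29.7% and 29.4% for its half-site. A match is a match of letters and not a measured binding site. The 4 sequences below hold the interferon element core in genes that differed in opposite directions, Gbp7 and Tnfsf13b higher and Irgm1 and Oas1a lower, and the 2 after them hold the PU.1 core in genes called lower. Each is the 250 bases before the start site, 5′ to 3′ on the strand of the gene, with the matches in capitals.
Gbp7, chr3:142530086-142530335, + strand: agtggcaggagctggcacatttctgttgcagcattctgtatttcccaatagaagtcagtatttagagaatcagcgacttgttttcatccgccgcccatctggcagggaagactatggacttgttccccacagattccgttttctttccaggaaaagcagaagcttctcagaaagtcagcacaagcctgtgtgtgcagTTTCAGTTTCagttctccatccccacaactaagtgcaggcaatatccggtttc
Tnfsf13b, chr8:10006383-10006632, + strand: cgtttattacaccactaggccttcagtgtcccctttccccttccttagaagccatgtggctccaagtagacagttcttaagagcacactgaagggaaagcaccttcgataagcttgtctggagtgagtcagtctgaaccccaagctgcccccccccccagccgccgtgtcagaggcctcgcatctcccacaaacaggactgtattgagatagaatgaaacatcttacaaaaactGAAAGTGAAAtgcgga
Irgm1, chr11:48871421-48871670, - strand: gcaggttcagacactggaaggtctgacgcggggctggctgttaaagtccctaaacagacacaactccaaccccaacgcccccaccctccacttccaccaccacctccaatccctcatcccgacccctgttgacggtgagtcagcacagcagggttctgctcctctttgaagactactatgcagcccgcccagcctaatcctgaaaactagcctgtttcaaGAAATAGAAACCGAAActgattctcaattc
Oas1a, chr5:120907526-120907775, - strand: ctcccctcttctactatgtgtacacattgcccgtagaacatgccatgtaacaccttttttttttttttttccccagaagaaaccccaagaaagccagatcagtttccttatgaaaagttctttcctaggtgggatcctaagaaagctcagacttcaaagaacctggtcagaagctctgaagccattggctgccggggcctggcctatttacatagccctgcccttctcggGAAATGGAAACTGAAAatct
Adora3, chr3:105904171-105904420, + strand: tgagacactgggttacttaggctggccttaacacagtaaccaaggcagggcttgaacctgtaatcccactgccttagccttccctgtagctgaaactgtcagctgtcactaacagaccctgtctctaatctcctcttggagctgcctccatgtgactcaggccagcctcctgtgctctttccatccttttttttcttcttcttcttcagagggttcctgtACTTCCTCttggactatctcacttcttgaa
Havcr2, chr11:46454681-46454930, + strand: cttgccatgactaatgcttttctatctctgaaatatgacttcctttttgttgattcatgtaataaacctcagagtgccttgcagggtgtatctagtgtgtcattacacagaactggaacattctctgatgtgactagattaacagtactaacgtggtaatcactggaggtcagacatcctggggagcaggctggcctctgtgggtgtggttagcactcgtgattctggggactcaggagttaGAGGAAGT

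Tnfsf13b, which encodes the B cell survival factor BAFF, was 26.5, 26.9 and 19.7 CPM with Tβ-MCA and 16, 19.8 and 15.3 CPM with GCA. It was the 1 gene of 9 inflammatory cytokines called with the block (0.51, adjusted p = 0.0384). Havcr2, which encodes the checkpoint receptor TIM-3, was 8.38, 12.1 and 14.8 CPM against 14.2, 16.3 and 21 CPM and was called lower with the block (-0.56, adjusted p = 0.0332), the 1 called among 19 genes of immunosuppressive effectors.

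Among the genes the study followed in neutrophils, the kinase genes had narrow intervals and the others did not. The p38 kinase Mapk14 was 130, 118 and 121 CPM with Tβ-MCA and 120, 123 and 124 CPM with GCA, a log2 fold change of 0.01 with a 95% interval of -0.13 to 0.15. Mapk3, which encodes the kinase ERK1, had a log2 fold change of -0.18 with an interval of -0.35 to -0.01, and Akt1 one of -0.15 with an interval of -0.31 to 0.00. Nos2, the inducible nitric oxide synthase, was 1.44, 1.62 and 1.82 CPM against 2.03, 1.12 and 2.39 CPM, a difference of -0.18 with an interval of -0.76 to 0.40. Cxcl10 was below 1 CPM in all 6 samples and differed by 0.12 with an interval of -0.80 to 1.03. Arg1 had 1 to 4 counts in each of the 6 samples and was not tested, and Ifng had 0 counts in all 6, of 32757389 to 38943864 counts a sample, which allows a level of up to 0.077 to 0.0916 CPM, the value of 3 counts. This limit covers counting error only. RNA levels do not measure the phosphorylation of kinases.

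Upstream of p38, the kinase gene Map2k6, which encodes MKK6, was 7.99, 6.4 and 2.92 CPM with Tβ-MCA and 0.676, 3.44 and 0.674 CPM with GCA, while PBS and TCA averaged 0.731 and 0.515 CPM. GCA samples 3 and 5 were at the level of PBS, and GCA sample 4 was above Tβ-MCA sample 5. The log2 fold change was 1.86 ± 0.59 (adjusted p = 0.221) and 1.96 with the block (adjusted p = 0.135). It was 3.40 without both samples that stood apart, a rise partly built into that choice of samples. Mapk13, the p38δ isoform, was 37.9, 43.9 and 57.6 CPM against 69.2, 60.6 and 73.1 CPM, without overlap, and was called lower with the block (-0.55, adjusted p = 0.033). Its difference was -0.87, -0.46 and -0.34 log2 units in pairs 3, 4 and 5. The stress-induced Gadd45a, Gadd45b and Gadd45g were higher by 0.65, 0.57 and 0.49 on the log2 scale and were not called with the block (adjusted p = 0.169, 0.213 and 0.137). In all, 5 of 30 genes of the p38 pathway were higher and 3 lower at an unadjusted p under 0.05, and 2, Mapk13 and Eef2k, were called with the block, both lower.

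Of the bile acid receptors, Nr1h4 had 2 counts in GCA sample 5 and 0 in the other 5 samples, and Gpbar1 2 counts in Tβ-MCA sample 5 and 0 in the others, and neither was tested. S1pr2, the receptor of conjugated bile acids on the cell surface, was 8.05, 9.1 and 7.15 CPM with Tβ-MCA and 6.39, 6.73 and 7.21 CPM with GCA (log2 fold change 0.26, interval -0.06 to 0.57). Rxra, the partner of FXR and of other nuclear receptors, was 61.1, 63.5 and 52.5 CPM against 39.7, 50.4 and 44.8 CPM. It did not overlap between groups and was called with the block (0.40, adjusted p = 0.0364), the 1 of 6 receptor genes tested. Nr1h3, which encodes the oxysterol receptor LXRα, was 1.55, 2.08 and 2.89 CPM against 4.17, 3.78 and 4.49 CPM, without overlap, and was called lower with the block (-0.94, adjusted p = 0.033). Slco2b1, an uptake carrier of organic anions, was 0.598, 0.756 and 1.07 CPM against 3.32, 1.66 and 2.39 CPM and was the 1 of 11 transporter genes called with the block (-1.53, adjusted p = 0.033). It has annotated genes on the opposite strand, Gm15635 and Gm34280.

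Genes of cyclic AMP signalling called with the block were all higher with Tβ-MCA, 3 of 24. Pde7b, a phosphodiesterase, was 9.84, 10.2 and 6.32 CPM with Tβ-MCA and 5.72, 5.76 and 4.75 CPM with GCA (0.68, adjusted p = 0.0397). Prkacb, a catalytic subunit of protein kinase A, was 59, 51.1 and 46 CPM against 38.4, 43.3 and 38.3 CPM (0.38, adjusted p = 0.0397). Adcy9, an adenylyl cyclase, was 66.2, 53.5 and 47 CPM against 46.2, 47.9 and 40.3 CPM (0.30, adjusted p = 0.0473). Pde7b and Prkacb did not overlap between groups, and Adcy9 did.

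The circadian clock list had the highest median, 0.25, with 9 of 14 genes above 0 and 5 below. At an unadjusted p under 0.05, 6 were higher and 0 lower. Dbp, a clock output factor, was 10.7, 10.4 and 7.44 CPM with Tβ-MCA and 4.48, 7.82 and 5.55 CPM with GCA, and was the 1 called with the block (0.70, adjusted p = 0.0434). Its GCA sample 4 was above its Tβ-MCA sample 5. Tef, of the same family, was 10.4, 7.56 and 5.89 CPM against 3.6, 5.87 and 4.41 CPM (0.78 ± 0.20, adjusted p = 0.0568 with the block), Bhlhe40 was 134, 134 and 97.2 CPM against 74.5, 104 and 80 CPM, and Per3 was 11.3, 9.8 and 7.49 CPM against 7.04, 8.36 and 5.94 CPM. Without Tβ-MCA sample 5, 4 of the 14 were called, all higher.

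Stress and metabolic genes also differed in both directions. In the list of the unfolded protein and integrated stress response, 4 of 23 genes were higher and 7 lower at an unadjusted p under 0.05, and the 3 called with the block were lower. They were Xbp1, its spliced form a transcription factor of the unfolded protein response, at 117, 101 and 129 CPM with Tβ-MCA and 163, 133 and 152 CPM with GCA (-0.36, adjusted p = 0.0364), Sesn2, a stress-induced inhibitor of mTORC1 (-0.49, adjusted p = 0.033), and Ppp1r15a, which encodes the eIF2α phosphatase subunit GADD34 (-0.34, adjusted p = 0.0473). Trib3 and Ddit3, targets of ATF4, were higher by 0.76 and 0.31 and were not called with the block (adjusted p = 0.0618 and 0.145). Cpt1a, which brings fatty acids into mitochondria, was 59.7, 74.7 and 51.3 CPM against 36.9, 54.3 and 40.7 CPM and was called higher with the block (0.50, adjusted p = 0.033), as was Pdk1, which inhibits pyruvate dehydrogenase (0.64, adjusted p = 0.0384). Slc16a3, the lactate exporter MCT4, was 50.7, 51.4 and 77.2 CPM against 79.6, 72.6 and 86.5 CPM and was called lower (-0.43, adjusted p = 0.04).

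Of 23 lysosomal genes, 21 had a log2 fold change above 0, and 6 were higher and 1 lower at an unadjusted p under 0.05, with a median of 0.08. Mcoln1, the lysosomal calcium channel TRPML1, was 143, 144 and 107 CPM with Tβ-MCA and 91.2, 111 and 93.3 CPM with GCA. Neu1, a sialidase, was 151, 154 and 116 CPM against 102, 125 and 106 CPM. In both, Tβ-MCA sample 5 was below GCA sample 4, and neither was called with the block (adjusted p = 0.0568 and 0.064). Ctsl, a cysteine protease, was called lower instead, at 47.9, 49 and 71.4 CPM against 76.3, 68 and 85.9 CPM (-0.46, adjusted p = 0.0432).

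Of 19 apoptosis genes, the BCL-2 family members Bcl2l11 and Bak1, both promoters of cell death, were called with the block in opposite directions. Bcl2l11, which encodes BIM, was 48.6, 46.5 and 40.9 CPM with Tβ-MCA and 31.5, 36.5 and 34 CPM with GCA (0.42, adjusted p = 0.0338). Bak1 was 48, 51.7 and 57.1 CPM against 62.2, 59.8 and 67.9 CPM (-0.28, adjusted p = 0.0397). Neither overlapped between groups. Among 23 immediate early genes, Myc, at 2.93, 2.13 and 3.61 CPM against 6.08, 3.87 and 6.04 CPM, and Klf4, at 4.94, 4.64 and 8.24 CPM against 12.5, 7.1 and 11 CPM, were called lower with the block (adjusted p = 0.033 and 0.0493). Of 16 NRF2 targets, 4 were higher and 1 lower at an unadjusted p under 0.05, and 1 was called with the block, lower. No member of the lists of cell cycle genes, mitochondrially encoded mRNAs, NADPH oxidase subunits, heat shock chaperones, cholesterol synthesis, adhesion molecules, NF-κB subunits, cytokine receptors or the ERK and JNK pathway was called with the block.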

How the data were processed

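Stranded mRNA libraries of 12 cultured neutrophil samples were compared. The authors deposited raw read counts per gene and RPKM values. The submitters' processing notes name Trimmomatic 0.36, STAR 2.5.3a, featureCounts of Subread 1.5.1 and GRCm38 (mm10), and whether reads were counted by strand is not given in the sources used here. RPKM recomputed from the deposited counts differed from the deposited values by at most 1.3e-06 in relative terms. Columns named GA were taken as GCA.

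Counts were fitted with edgeR 4.0.16 (R 4.3.3) over all 12 samples, with filterByExpr, TMM factors and the robust quasi-likelihood test, and with DESeq2 1.42.0 and limma 3.58.1 as alternatives, the last on log2 RPKM after a pseudocount of 1 and for genes averaging 0.5 or more. Named genes were the 12 higher and 12 lower of lowest p at the study's thresholds without overlap, genes the study named (1 is not reported here), list members at those thresholds, and genes added after values were seen. The members and lists were chosen with earlier results of these data known. Samples with the same number deviated together from their group means (correlations across genes of 0.197, 0.215 and 0.239 for numbers 3, 4 and 5, and -0.268 to 0.0418 for other pairs). Deviations from a mean of 3 samples sum to 0, so higher correlations for some pairs force lower ones for others. The number was used to pair the samples in the alternative fits with the block and not in the main fit. The source of the pairing is not given. The fit was tested on simulated data.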

Additional observations from a re-analysis of the deposited data

How the results depend on the processing

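Genes called between Tβ-MCA and GCA numbered 0 with all samples and no block. The count was 332 with the replicate block, 350 with the block on the 6 samples alone, 298 with DESeq2, 1203 with no filter on low counts, 3023 with the block and without Tβ-MCA sample 5, and, for the pair of alternatives added after the data were seen, 2063 without Tβ-MCA sample 5 and GCA sample 4 and 3482 when the block was added to that. Leaving out 1 sample at a time gave 0 to 1639 called genes, and 0 in every case but that of Tβ-MCA sample 5. With no filter on low counts the lowest adjusted p of edgeR's test was 8.93e-126, against 0.207 with the filter. The reason for this drop was not tested. RLE factors, total library size, a minimum of 10 counts, limma on RPKM and the 6 samples alone gave 0. Total library size moved the split of genes at an unadjusted p under 0.05 to 1673 higher and 957 lower, from 1328 and 1270, and the median log2 fold change to 0.04 from 0.00.

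Genes at the study's thresholds numbered 265, 310 with the replicate block pairing the samples, and 185 to 706 when 1 sample was left out (473 without GCA sample 4, 706 without Tβ-MCA sample 5). The count was 161 on the 6 samples alone, 563 with no filter, 88 with at least 10 counts in every sample, 47 with limma on RPKM, 709 with the block and without Tβ-MCA sample 5, 904 without both samples that stood apart and 1002 with the block added. The cause of these changes was not tested. No filter and the stricter filter also changed the number of genes tested, to 29737 and 14409.

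Of 2493 values of 141 named genes under these alternatives, 2486 kept their direction. The 7 others were of genes whose 95% intervals spanned 0: Mapk14 without Tβ-MCA sample 3 (-0.032) or GCA sample 3 (-0.01), Nos2 without GCA sample 5 (0.048), and Cxcl10 without Tβ-MCA sample 5 (-0.06, and -0.19 with the block added), GCA sample 3 (-0.12) or GCA sample 5 (-0.01). Over the fits that left out 1 sample, the log2 fold change ranged from -0.032 to 0.040 for Mapk14, from -0.44 to 0.048 for Nos2 and from -0.12 to 0.56 for Cxcl10. List medians moved by less than the SD of the 3 Tβ-MCA samples in 684 of 774 cases. The other 90 cases were spread over 25 of the 43 lists. This SD includes Tβ-MCA sample 5, so it is wide where that sample stood apart.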
